A study of Mus musculus with 2 samples.

Results

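Grm7-positive CAR cells are a set of marrow stromal cells that carry transcripts of Grm7, the gene of metabotropic glutamate receptor 7, a receptor best known from the presynaptic terminals of neurons. They were taken from 2 single-cell libraries of stromal cells of the long-bone marrow of wild-type C57BL6 mice, 1 library from old and 1 from adult mice. A CAR cell, short for CXCL12-abundant reticular cell, was a barcode with 10 or more UMIs (counted RNA molecules) of Cxcl12, at least 1 of Lepr and fewer than 3 of Cdh5 and Kdr together. It counted as Grm7-positive with 5 or more Grm7 UMIs, if it also had fewer than 15 UMIs of C3 and Saa3 together, fewer than 3 of Cxcl13, fewer than 3 of Kit and fewer than 5 of Wif1, Alpl and Hs3st5 together. The members were thus chosen by their raw counts of Grm7 and of the 11 other genes of the rule, and differences in those genes are no result. The rule found 2151 cells among 41378 barcodes kept of 47933 deposited. Of these, 2019 came from the old library and 132 from the adult library. They are set against CAR cells of the same library in which no Grm7 UMI was counted, 8080 in the old and 15100 in the adult library, called Grm7-zero cells below.

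Marrow cells were freed with collagenase IV, dispase and DNase, haematopoietic cells were depleted on a magnetic separator, live cells were sorted by scatter and DAPI, and libraries were made with a 10x Genomics 3ʹ kit. The labels state neither ages in months nor the number and sex of the mice, nor whether marrow was pooled. With 1 library per age group, age and library cannot be told apart, no difference has a replicate check, and no test was run. Intervals cover counting error only, at 95%. A Grm7-positive cell held a median of 8794 UMIs in the old and 10818 in the adult library, against 7575 and 7663 in Grm7-zero cells. The libraries shared 152 barcode sequences, among them 10 of the old and 1 of the adult Grm7-positive cells.

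CAR cells sit around the marrow sinusoids and are the main source of CXCL12 and stem cell factor (Kitl), which hold and feed haematopoietic stem cells. In the nervous system, glutamate binds metabotropic receptor 7, which couples to inhibitory G proteins and damps transmitter release. The other 4 genes used to mark these cells are Tenm2 (teneurin 2, an adhesion protein that binds latrophilins), Lgr5 (a receptor for R-spondins, which strengthen Wnt signals), Efemp1 (fibulin 3, a matrix glycoprotein) and Nrg3 (neuregulin 3, a ligand of the receptor ErbB4). These markers were chosen with results of these libraries known.

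The promoter of Grm7 is shown because its transcript defines the cells, and that of Nrg3 because among the other markers its level differed most along the Grm7 count in the old library. Each line holds 250 bases before and 50 after a transcript start, 5′ to 3′ along the gene, from RefSeq on build GRCm38.p6. Grm7 has 2 starts in the table, and the window of the first, chr6:110645262-110645561 on the plus strand, is printed. The Nrg3 window is chr14:39473039-39473338 on the minus strand. Capitals mark the motif CCCNNGGG, the core of the site bound by EBF transcription factors, together with a T before and an A after it where these complete the longer palindrome.
Grm7: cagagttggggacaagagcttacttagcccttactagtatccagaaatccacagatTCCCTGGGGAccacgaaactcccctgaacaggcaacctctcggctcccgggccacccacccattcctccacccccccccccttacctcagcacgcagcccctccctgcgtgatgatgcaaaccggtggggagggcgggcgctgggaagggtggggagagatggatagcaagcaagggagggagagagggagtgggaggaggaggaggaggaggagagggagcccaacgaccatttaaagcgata
Nrg3: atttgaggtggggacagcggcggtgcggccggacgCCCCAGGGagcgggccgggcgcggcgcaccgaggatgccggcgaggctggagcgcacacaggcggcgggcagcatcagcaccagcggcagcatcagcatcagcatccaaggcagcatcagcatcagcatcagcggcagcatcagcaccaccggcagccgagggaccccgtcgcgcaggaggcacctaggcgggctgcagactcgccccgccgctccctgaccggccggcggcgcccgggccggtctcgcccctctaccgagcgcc
The longer palindrome lies at bases 57 to 66 of the Grm7 window and was found in 0.904% of 32851 promoter windows of the same length, searched on both strands. The shorter core, which lies inside it, was found in 13.7% of windows, Nrg3 among them. Of the 8 genes with a window among 10 looked up (Grm7, Tenm2, Efemp1, Nrg3, Slco1a4, Unc5c, Kitl and Igfbp3, but not Lgr5 or Rspo2), only Grm7 held the longer palindrome and only Grm7 and Nrg3 the core. The window of the second Grm7 start, which overlaps the first, held neither. The cells carried transcripts of Ebf3, whose factor maintains CAR cells in mice. Ebf3 stood at 2794 CPM (UMIs of the gene per 1000000 UMIs summed over the group) in Grm7-positive and 1837 CPM in Grm7-zero cells of the old library. A match is a run of letters and shows no binding.

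Grm7-positive cells made up 15% of 13461 CAR cells in the old library (exact binomial interval 14.4% to 15.6%) and 0.820% of 16097 CAR cells in the adult library (0.687% to 0.972%). Before the exclusions, 19.9% of old and 0.926% of adult CAR cells had 5 or more Grm7 UMIs. Any Grm7 UMI at all was counted in 39.97% of the old and 6.19% of the adult CAR cells. With every cell thinned to 3000 UMIs before the threshold, the shares were 6.34% in the old and 0.153% in the adult library. The old share was the higher one at equal depth too. More cells of this kind and more Grm7 RNA per cell both move this share and cannot be told apart.

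Grm7 counts showed no gap beside the threshold in either library. Among the 9166 old CAR cells that pass the exclusions, 5105 had 0 UMIs and 842 had 1. Just outside the threshold lay 400 cells with 3 and 289 with 4 UMIs, and just inside it 229 with 5 and 240 with 6. Of the old Grm7-positive cells, 934 had 5 to 9 UMIs, 691 had 10 to 19 and 394 had 20 or more. Of the adult ones, 90, 36 and 6 fell in these bands. The median cell held 10 Grm7 UMIs in the old and 7 in the adult library, and the highest cells held 113 and 38. Old cells with 4 Grm7 UMIs held 426 CPM of Tenm2, 70.2 of Lgr5, 324 of Efemp1 and 649 of Nrg3, and those with 5 held 449, 62.8, 368 and 476 CPM of the same genes.

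**Figure D1:**
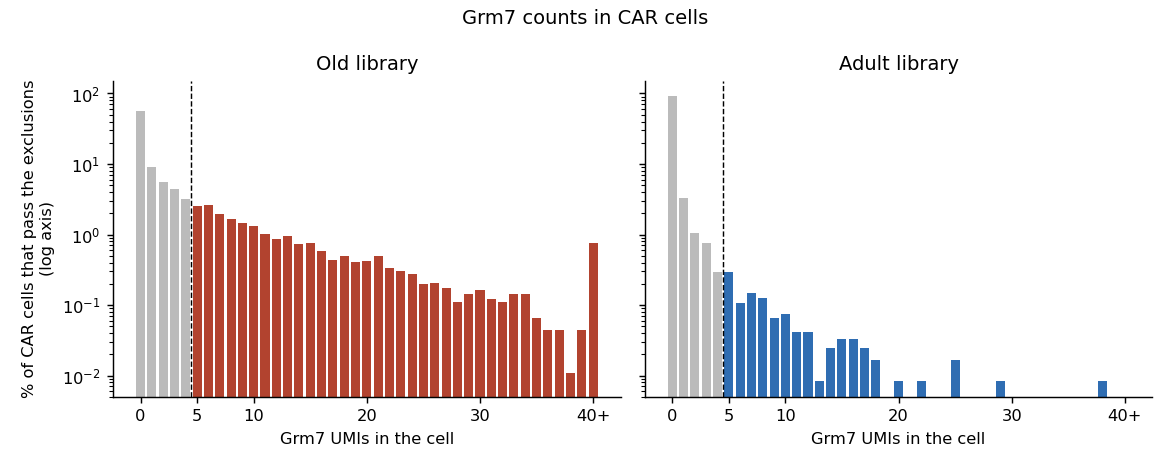
Share of CAR cells that pass the exclusions (y axis, percent on a log axis) by the number of Grm7 UMIs in the cell (x axis), in the old (left) and adult (right) library. Coloured bars right of the dashed line are the Grm7-positive cells, the last bar gathers 40 or more UMIs, and counts have no gap beside the threshold in either library.

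Outside the CAR cells Grm7 was low. Summed over barcodes without Lepr, it stood in the old library at 9.24 CPM in osteolineage, 8.71 in endothelial, 12.1 in megakaryocyte, 5.64 in mural, 1.51 in erythroid and 1.12 CPM in plasma cell barcodes. In the Grm7-positive cells it was 1365 CPM, which the rule sets. A Grm7 UMI was found in 4% (mural) to 6.67% (osteolineage) of the old barcodes of these other kinds, at median depths of 1832 (megakaryocyte) to 41358 UMIs (erythroid). The adult barcodes of these kinds held one in 0% to 1.63%. Only osteolineage barcodes reached 5 Grm7 UMIs, 3 of 675 in the old and 1 of 1292 in the adult library. Old CAR cells that met an exclusion and had fewer than 5 Grm7 UMIs stood at 40.03 CPM where high in C3 and Saa3, 22 CPM with Cxcl13 and 12.7 CPM with Wif1, Alpl and Hs3st5. The cap of 5 UMIs holds these levels down, so they do not give the Grm7 level of these kinds. It left out 524 cells high in C3 and Saa3, beside 1549 kept. With Cxcl13 it left out 96 beside 1053, and with Wif1, Alpl and Hs3st5 88 beside 1344.

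The exclusions bore on Grm7 itself. In the old library, C3 and Saa3 reached 15 UMIs in 19.5% of CAR cells with 5 or more Grm7 UMIs and in 14.4% of those with none. Each of the other exclusions was less frequent with Grm7. Cxcl13 reached 3 UMIs in 3.58% against 11.1%, Kit in 1.79% against 5.62%, and Wif1, Alpl and Hs3st5 reached 5 UMIs in 3.28% against 14.9%. Of adult CAR cells, 10.1% of those with 5 or more Grm7 UMIs and 24.5% of those with none reached 5 UMIs of Wif1, Alpl and Hs3st5. Grm7-zero cells as the rule defines them therefore hold excluded kinds that the Grm7-positive cells cannot hold. For that reason main ratios below are also given against Grm7-zero cells that pass the same exclusions, 5105 in the old and 11299 in the adult library, and where named against those cells weighted to the depth of the Grm7-positive cells.

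The cells carried the transcripts of CAR cells. All 25 genes of a CAR identity list, Cxcl12 and Lepr not among those compared, were detected, and their summed level was 29448 CPM in Grm7-positive and 23997 CPM in Grm7-zero cells of the old library. Kitl, the stem cell factor gene, was found in every Grm7-positive cell of both libraries. It stood at 4801 CPM in Grm7-positive and 3052 CPM in Grm7-zero cells of the old library, and at 4473 and 3145 CPM in those of the adult library. Against Grm7-zero cells under the same exclusions the log2 ratio of Kitl was 0.48 in the old and 0.23 in the adult library. Neuron markers were near 0. Their summed level over 14 genes was 10.5 CPM in Grm7-positive and 12.3 CPM in Grm7-zero cells of the old library, and 20.8 and 14.4 CPM in those of the adult library. Rbfox3, Snap25, Syt1, Stmn2 and Elavl4 were at 0 in the adult Grm7-positive cells. None of the other metabotropic glutamate receptor genes reached the minimum of 50 CPM and 50 UMIs in either library.

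All 4 other markers were higher in the old Grm7-positive cells, and Tenm2 and Nrg3 also in the adult ones. Nrg3 stood at 796 CPM in Grm7-positive and 233 CPM in Grm7-zero cells of the old library, a log2 ratio of 1.77 (counting interval 1.74 to 1.81). The ratio was 1.51 under the same exclusions and 1.33 with depth weighting as well. Nrg3 was found in 49.9% of Grm7-positive and 21.5% of Grm7-zero cells once each cell was thinned to 3000 UMIs. Among adult cells it was at 523 CPM in Grm7-positive and 287 CPM in Grm7-zero cells, with ratios of 0.87 and, under the exclusions, 0.44.

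Tenm2 was the marker that set the adult cells apart most. It stood at 177 CPM in Grm7-positive and 64.8 CPM in Grm7-zero cells there, a log2 ratio of 1.45 (1.27 to 1.62) that was 1.15 under the exclusions and 1.04 with depth weighting. In the old library it was at 457 CPM in Grm7-positive and 215 CPM in Grm7-zero cells, with a ratio of 1.08 that was 0.72, under 2-fold, with the exclusions and 0.82 with ratios centred by gene length. Its level is uneven between cells, since the median old Grm7-positive cell had 0 Tenm2 UMIs, the 95th percentile had 23 and the highest had 131.

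Lgr5 and Efemp1 differed in the old library, while in the adult one no difference was seen. Lgr5 was at 79.6 CPM in Grm7-positive and 34.4 CPM in Grm7-zero cells of the old library, a log2 ratio of 1.21 that was 0.85 under the exclusions. Only 7 Lgr5 UMIs were counted in all adult Grm7-positive cells, 4.41 CPM against 3.44 CPM in Grm7-zero cells. The ratio of 0.36 has an interval of -0.96 to 1.41, so that no difference was detectable at this depth. Efemp1 was less than 2-fold higher even in the old library, with 347 CPM in Grm7-positive and 226 CPM in Grm7-zero cells and a ratio of 0.62 that was 0.40 under the exclusions. Its adult levels were 32.7 and 31.2 CPM, a ratio of 0.07 with an interval of -0.35 to 0.47, and of -0.17 under the exclusions. Grm7 itself is set by the rule. Of the other markers, only Tenm2 was therefore past 2-fold in the 132 adult cells. Nrg3 was higher by less than 2-fold, and Lgr5 and Efemp1 were not detectably different.

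Over all genes, few differed. A gene was counted with at least 50 CPM and 50 UMIs in the group where it was higher, leaving out the genes of the rule, and called when its CPM differed at least 2-fold. Of 4049 genes in the old library, 27 were higher (0.667%) and 44 lower (1.09%) in Grm7-positive cells. Against Grm7-zero cells under the same exclusions, 15 were higher (0.379%) and 25 lower (0.632%) of 3954. With depth weighting as well, 12 were higher (0.306%) and 34 lower (0.866%) of 3926. The 12 genes called higher with all 3 references were Adarb2, Cnnm1, Cobl, Dok6, Igfbp3, Ldb2, Ncald, Nrg3, Ptchd1, Slco1a4, Slco1a5 and Unc5c.

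Slco1a4, which encodes an organic anion transporter known from the blood-brain barrier, had the highest ratio over all Grm7-zero cells among the old library's named genes past the minimum. Under the exclusions Nrg3 (1.51) stood above it. It stood at 113 CPM in Grm7-positive and 27.7 CPM in Grm7-zero cells, a log2 ratio of 2.03 (1.94 to 2.11), and of 1.44 under the exclusions. Its near relative Slco1a5 was at 103 and 34.3 CPM. Reads may be split between these closely related genes, so their separate values are uncertain. Adult Slco1a4 stood at 50.4 CPM in Grm7-positive and 36.3 CPM in Grm7-zero cells, or 50.5 CPM in those under the exclusions. Adult Slco1a5, on 48 UMIs and below the minimum, was at 30.2 and 8.73 CPM.

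Unc5c, a receptor for the axon guidance cue netrin 1, was at 244 CPM in Grm7-positive and 79.7 CPM in Grm7-zero cells, a ratio of 1.61 that was 1.20 under the exclusions. Adarb2, the brain-enriched relative of RNA-editing enzymes, was at 63.9 and 17.5 CPM with a ratio of 1.87 (1.20 under the exclusions), and Grid1, a glutamate receptor of the delta type, at 200 and 84.0 CPM. Grid1 had a ratio of 1.25, which was 0.98 under the exclusions. Ptchd1, of the patched domain family, had a ratio of 1.61 and its relative Ptchd4 of 1.34, or 1.10 and 1.08 under the exclusions. Of the adult cells' genes, none of Unc5c, Adarb2, Grid1, Ptchd1 and Ptchd4 reached 2-fold, with ratios of 0.50 (Adarb2) to 0.95 (Ptchd1).

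Rspo2, which encodes the Lgr receptor ligand R-spondin 2, stood at 936 CPM in Grm7-positive and 383 CPM in Grm7-zero cells of the old library. The adult levels were 1135 and 551 CPM, so that the log2 ratios were 1.29 and 1.04, or 1.08 and 0.84 under the exclusions and 1.09 and 0.75 with ratios centred by gene length. Rspo2 was one of 3 genes called higher in both libraries, with Tenm2 and the actin regulator gene Cobl. These 3 are 11.1% of the 27 old and 10.7% of the 28 adult genes called higher, which were 0.667% and 0.681% of all genes counted. Under the exclusions 15 old (0.379%) and 29 adult genes (0.715%) were called higher, and no gene was called in both. Rspo2 was then past 2-fold only in the old and Tenm2 only in the adult library, though both were higher in each. The adult list also holds genes carried by single cells, as given below. Igfbp3, an insulin-like growth factor binding protein, was at 213 CPM in Grm7-positive and 73.4 CPM in Grm7-zero cells of the old library, a ratio of 1.54 that was 1.02 under the exclusions. Lama3, a laminin chain, passed the minimum in the adult library, where it was at 71.8 and 21.1 CPM with a ratio of 1.76 (1.26 under the exclusions). In the old library it was at 44.3 and 7.98 CPM, below the minimum, with a ratio of 2.47 (1.95).

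Among the lower genes, Ncam1, the neural cell adhesion molecule, stood at 58.6 CPM in Grm7-positive and 304 CPM in Grm7-zero cells of the old library, a log2 ratio of -2.38 that was -1.61 under the exclusions and -1.54 with depth weighting. It was found in 10.2% and 36.6% of cells thinned to 3000 UMIs. Adult Ncam1 was at 142 and 298 CPM, with ratios of -1.07 and, under the exclusions, -0.56. Fndc1, a fibronectin domain protein, was at 33.4 and 154 CPM in the old library, and Col6a3, a chain of collagen VI, at 14.2 and 79.5 CPM. Their ratios of -2.20 and -2.49 were -1.37 and -1.86 under the exclusions. The adult ratio of Col6a3 was 0.21, where 1 cell held 47.3% of its UMIs, and -0.56 without cells that carry UMIs of another cell type.

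Some bone matrix genes were lower, and by less once the exclusions applied to both sides. Ibsp (bone sialoprotein) was not: it stood at 2858 CPM in Grm7-positive and 2574 CPM in Grm7-zero cells of the old library, and at 6955 and 6241 CPM in those of the adult library. Postn (periostin) was at 5.30 CPM in Grm7-positive and 58.3 CPM in Grm7-zero cells of the old library, and its ratio of -3.46 became -1.64 under the exclusions. Bglap (osteocalcin) was at 5.54 and 52.0 CPM, and its ratio of -3.23 became -0.37. Col1a1, the main collagen of bone, was at 662 CPM in adult Grm7-positive and 9502 CPM in adult Grm7-zero cells, a ratio of -3.84 that became -2.06, and -1.41 with depth weighting. Bglap there had a ratio of -4.26 that became -2.64 and -1.83. After thinning, Col1a1 was found in 82.6% of adult Grm7-positive and 84.7% of adult Grm7-zero cells. The part of free RNA in these values was not tested.

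Some of the lowest genes rest on a handful of barcodes. The neutrophil gene S100a8 was at 22.4 CPM in Grm7-positive and 180 CPM in Grm7-zero cells of the old library, with a ratio of -3.01 that was -2.00 under the exclusions and -0.03 once cells with UMIs of another cell type were left out. For S100a9 the ratios were -3.01, -1.90 and -0.18. Spp1 (osteopontin), at 480 and 1646 CPM, had 36.5% of its UMIs in 1 Grm7-positive cell, and its ratio of -1.78 was -2.24 without such cells. Immunoglobulin light chain transcripts (Igkc) were found in every old CAR cell of both kinds, at 13318 CPM in Grm7-positive and 23889 CPM in Grm7-zero cells.

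**Figure D2:**
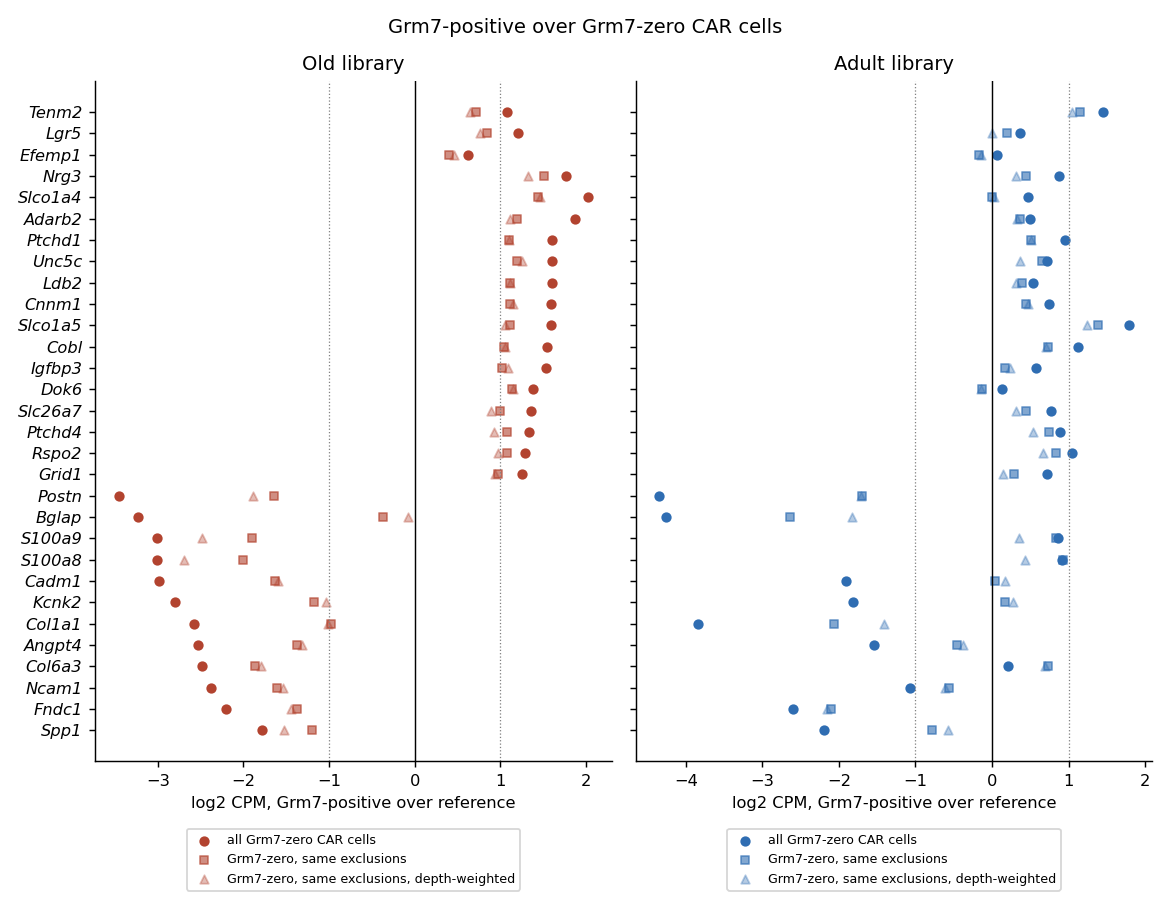
Log2 ratio of CPM in Grm7-positive cells over 3 references (x axis) for the 4 other markers and the genes with the 15 highest and 12 lowest ratios of the old library (y axis), in the old (left) and adult (right) library. Circles use all Grm7-zero CAR cells, squares those under the same exclusions, triangles those also weighted by depth. The old ratio of Slco1a4 is 2.03, 1.44 and 1.46 with the 3 references and that of Nrg3 1.77, 1.51 and 1.33, while Bglap is at -3.23 against all Grm7-zero cells and at -0.37 under the exclusions.

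Several genes of the adult list of higher genes are carried by single cells. Of 4109 adult genes, 28 were higher (0.681%) and 51 lower (1.24%). Under the exclusions 29 were higher (0.715%) and 14 lower (0.345%) of 4055, and with depth weighting 13 (0.323%) and 11 (0.273%) of 4030. One adult Grm7-positive cell, with 1669 UMIs of the cartilage collagen gene Col2a1, held 95.2% of all chondrocyte marker UMIs of the group. A single cell likewise held 97.2% of the UMIs of Pcolce2, 95.1% of Cnmd (chondromodulin) and 71.9% of Pde4b, the genes with high adult ratios of 2.35, 1.35 and 1.79. Without the cells that carry UMIs of another cell type, these ratios were -0.55, -0.47 and 0.46, and 13 genes were called higher. Tenm2 (1.46), Lama3 (1.77) and Nckap5 (1.19) kept theirs, and Bin3 (1.12) also stayed above 2-fold. Under the exclusions Bin3 was at 1.22, while Nckap5, at 0.95, was no longer 2-fold higher. The 8 lowest adult genes were Bglap2, Postn, Bglap, Ifitm5, Col1a1, Car3, Cpe and Ptgis, of which Bglap, Bglap2 and Ifitm5 are osteoblast genes, with ratios of -4.41 to -3.01. All 8 were less far apart under the exclusions, at -2.75 to -1.18.

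Within the old library, the summed levels of several genes went up along bands of the Grm7 count. From cell to cell among the Grm7-positive cells the relation was weak, as given below. In CAR cells that pass the exclusions, Nrg3 stood at 279 CPM with 0 Grm7 UMIs, 421 with 1, 427 with 2, 606 with 3 and 4, 637 with 5 to 9, 822 with 10 to 19 and 1037 CPM with 20 or more. Rspo2 went along, with 443 CPM at 0, 704 at 3 and 4, 754 at 5 to 9 and 1267 CPM at 20 or more. Both were therefore higher already in cells below the threshold.

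Unc5c was at 106 CPM with 0 and 298 CPM with 20 or more Grm7 UMIs, Slco1a4 at 41.6 and 143 CPM and Kitl at 3437 and 5205 CPM. Ncam1 ran the other way, with 179 CPM at 0, 62.0 at 2, 75.1 at 5 to 9 and 35 CPM at 20 or more. Tenm2 and Efemp1 differed little beyond 3 Grm7 UMIs. Tenm2 was at 277 CPM with 0, 444 with 3 and 4 and 446 CPM with 20 or more Grm7 UMIs, and Efemp1 at 263, 340 and 374 CPM. Lgr5 was at 44.3, 60.4 and 90.6 CPM in the same bands. Median depth also went up along the bands, with 6393 UMIs at 0 and 11006 at 20 or more. In bands of Grm7 per 10000 UMIs of the cell, median depth from 5 per 10000 upward was 7659 to 8043 UMIs. Nrg3 stood there at 756 CPM with 5 to under 10, 858 with 10 to under 20 and 953 CPM with 20 or more Grm7 UMIs per 10000. Lgr5 did not go up over these bands, with 82.9, 81.6 and 80.5 CPM, though all were above its 44.3 CPM at 0.

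The 132 adult cells gave fewer bands with usable numbers. Rspo2 stood at 634 CPM with 0, 1138 with 5 to 9 and 998 CPM with 10 to 19 Grm7 UMIs, and Unc5c at 170, 211 and 351 CPM. Nrg3, at 385, 514 and 569 CPM, changed little beyond 1 Grm7 UMI, where it was already at 520 CPM. The band of 20 or more held 6 cells and 5 Lgr5 UMIs.

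**Figure D3:**
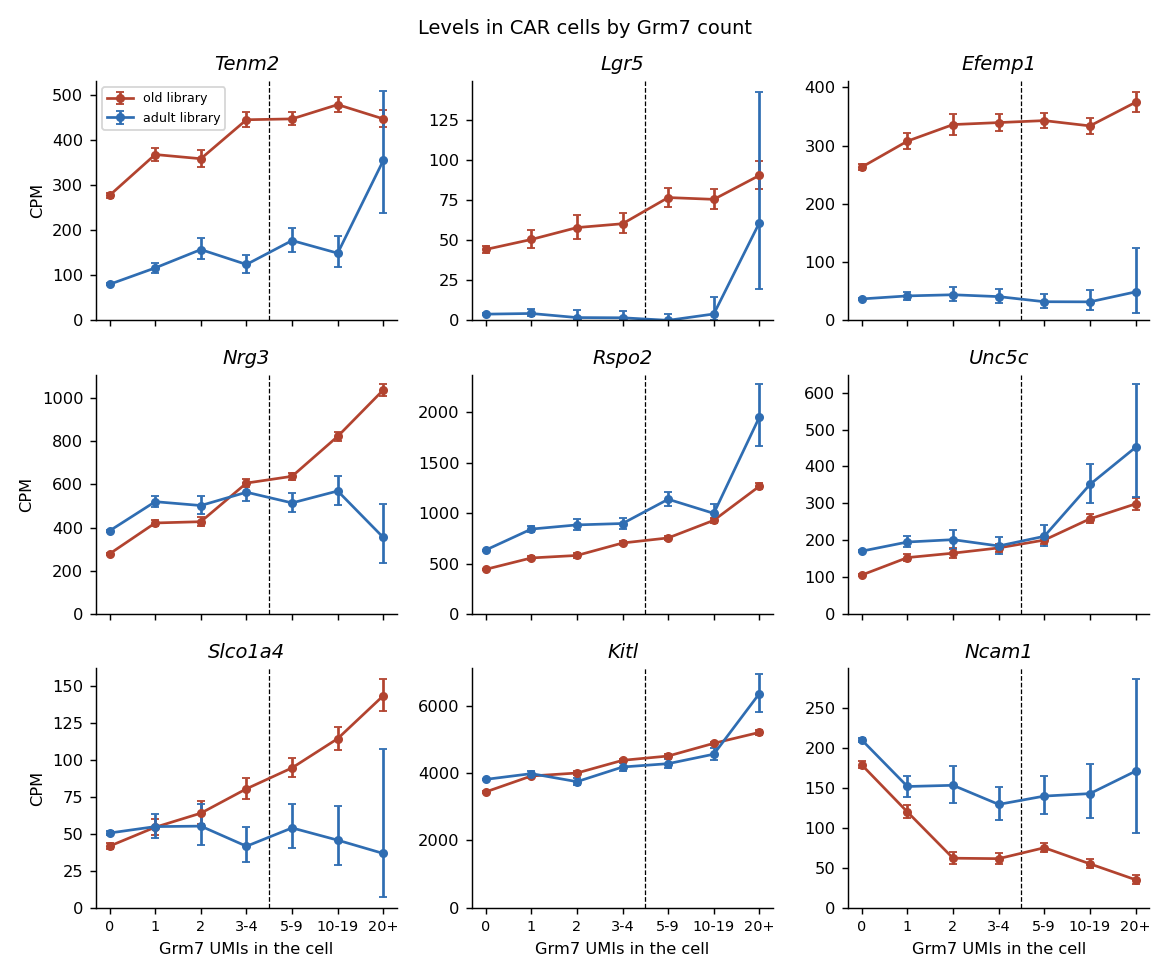
CPM of 9 genes (y axis, linear, starting at 0) in CAR cells that pass the exclusions, by Grm7 UMIs in the cell (x axis), for the old (red) and adult (blue) library. Points are sums over the cells of a band, bars are exact Poisson intervals, and the dashed line marks the threshold of 5 UMIs. In the old library Nrg3, Rspo2, Unc5c, Slco1a4 and Kitl climb with Grm7, Ncam1 declines, and Tenm2 and Efemp1 differ little beyond 3 and 4 UMIs.

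The cells were not uniform in the other markers. Among 2005 old Grm7-positive cells thinned to 3000 UMIs, 14.2% had a UMI of none of Tenm2, Lgr5, Efemp1 and Nrg3, 33.8% of 1, 32.9% of 2, 16.9% of 3 and 2.24% of all 4. Of 4515 Grm7-zero cells under the same exclusions, 28.9% had none and 0.975% all 4. Of the adult cells, 35.6% of the 132 Grm7-positive and 55.0% of 10276 Grm7-zero cells had none, and no cell of either kind had all 4; 0 of 132 allows a share of up to 2.76%. Thinning left out 14 of the old Grm7-positive cells and 590 of the old Grm7-zero cells. Across the old Grm7-positive cells the markers were close to unrelated, with Spearman correlations of thinned counts of 0.14 between Tenm2 and Nrg3, 0.12 between Lgr5 and Nrg3 and -0.05 between Tenm2 and Efemp1. Grm7 itself was as weakly related to them, at 0.03 with Nrg3, -0.03 with Tenm2, -0.03 with Lgr5 and 0.03 with Efemp1. Its correlation was 0.10 with Rspo2 and 0.09 with Kitl. These describe cells of 1 library with sparse counts.

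Of the pathway lists with at least 3 genes counted in each library, that of teneurins, latrophilins and their partners had the highest median. The lists were chosen with results of these libraries known, and the median log2 ratio over all genes was 0.05 in the old and 0.06 in the adult library. Of 14 genes of teneurins, latrophilins and their partners, 6 could be counted in the old library, with a median of 0.85. Of these, 3 were 2-fold higher (Unc5c, Adgrl3 and Tenm2, itself a marker of the cells) and 1 lower (Tenm4). Over all genes, 0.667% were called higher and 1.09% lower. Tenm4 and Flrt2 were below 0 in both libraries. Under the exclusions Unc5c alone stayed past 2-fold, Adgrl3 was at 0.85 and Tenm4 at -0.66, and the median was 0.63. The adult median under the exclusions was 0.41. Adgrl3 encodes latrophilin 3, which binds teneurins and FLRT proteins. It was at 181 CPM in Grm7-positive and 78.2 CPM in Grm7-zero cells of the old library and at 164 and 101 CPM in the adult library. The adult median of the list was 0.65, with Tenm2 alone past 2-fold, and centring by gene length gave 0.62 in the old and 0.32 in the adult library. Among neuregulins and their receptors, 3 of 14 could be counted in the old library, Nrg3 at 2-fold and Egfr and Nrg2 below it. Of 46 other synaptic and neuronal adhesion genes, 9 could be counted, none was 2-fold higher, and Ncam1 and Cadm1 were 2-fold lower.

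Of 44 genes of R-spondin receptors and the Wnt pathway, 16 could be counted in the old library, with a median of 0.09. Of these, 2 were 2-fold higher (Rspo2 and Lgr5, itself a marker of the cells) and none lower. Over all genes, 0.667% were called higher and 1.09% lower. Under the exclusions 1 of 15 (Rspo2) was 2-fold higher, beside 0.379% of all genes, and with depth weighting as well none was. Rspo3, the other R-spondin of the marrow stroma, was at 162 CPM in Grm7-positive and 174 CPM in Grm7-zero cells. Tcf7l1, a transcription factor that acts on Wnt target genes, was at 296 and 200 CPM. Among 16 adult genes Rspo2 alone passed 2-fold, beside 0.681% of all genes called higher, with a median of 0.13.

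Genes of CAR identity were modestly higher in the old library, with 20 of 24 counted genes above 0 (57.4% of all genes were), none at 2-fold and a median of 0.31. Grem1, a BMP antagonist, stood at 600 CPM in Grm7-positive and 346 CPM in Grm7-zero cells, Angpt1, a ligand of the receptor Tie2, at 502 and 316 CPM and Bmp4 at 170 and 112 CPM. The chemokine gene Cxcl14 was the exception farthest below 0, at 1170 and 1882 CPM. Under the exclusions the median was 0.22 in the old library and -0.02 in the adult one, where it had been 0.22 against all Grm7-zero cells. Of 24 counted genes of TGF-beta and BMP signalling none reached 2-fold in the old library. Bmp6 was the farthest, at 1472 and 812 CPM, and at 1535 and 933 CPM in the adult library. Adipogenic genes had medians of 0.16 in the old and -0.00 in the adult library. Adipoq, the adiponectin gene that marks CAR cells with adipogenic potential, was at 1228 and 1098 CPM in the old and at 1332 and 1599 CPM in the adult library.

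Osteogenic genes had medians below 0, with 6 of 15 counted genes 2-fold lower in the old library and 9 of 19 in the adult one, and none 2-fold higher. Of all genes, 1.09% and 1.24% were called lower. Under the exclusions the counts were 1 of 13 in the old and 4 of 17 in the adult library, beside 0.632% and 0.345% of all genes. The medians of -0.71 and -0.79 became -0.19 and -0.29 under the exclusions, which remove cells with Wif1, Alpl and Hs3st5. Runx2, the master regulator of the osteoblast lineage, ranked highest of the list in both libraries.

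Nuclear genes of oxidative phosphorylation were slightly lower without exception, 38 of 38 counted in each library, none at 2-fold. Their medians were -0.37 in the old and -0.45 in the adult library, -0.29 and -0.39 under the exclusions, and -0.10 in each library with ratios centred by gene length. Cox5b, a subunit of cytochrome c oxidase, was at 91.6 CPM in Grm7-positive and 130 CPM in Grm7-zero cells of the old library and at 69.9 and 116 CPM in the adult one. Mitochondrial transcripts had a median share of 2.09% in Grm7-positive and 2.36% in Grm7-zero cells of the old library, and of 1.84% and 2.29% in the adult one. Genes of antigen presentation were lower in 14 of 16 in the old and 11 of 11 in the adult library, with medians of -0.07 and -0.24 and none at 2-fold. Over all genes, 57.4% were above 0 in the old and 55.95% in the adult library. With exclusions and depth weighting, 8 of the 16 old genes were lower and 8 higher, where 65.7% of all genes were higher. Interferon response, complement, chemokine, heat shock, immediate early, IGF, elastic fibre and collagen genes had medians between -0.14 and 0.25 in both libraries.

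Ratios went with gene length. With genes in quartiles of length, the median log2 ratio was -0.27 in the shortest, -0.01, 0.14 and 0.22 in the longest quartile of the old library, and -0.34, -0.04, 0.17 and 0.32 in the adult one. Under the exclusions with depth weighting, the shortest and longest quartiles were at -0.15 and 0.20 in the old and at -0.24 and 0.19 in the adult library. Grm7 spans 921650 bases, Tenm2 1229309 and Nrg3 1104137, all in the longest quartile, while Efemp1 spans 73540 and Slco1a4 50760. Cox5b spans 2233. Malat1, a transcript retained in the nucleus, was at 29816 CPM in Grm7-positive and 26379 CPM in Grm7-zero cells of the old library and at 33814 and 31668 CPM in the adult one. Whether reads in introns were counted is not given in the sources used here, and its part in these ratios was not tested.

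**Figure D4:**
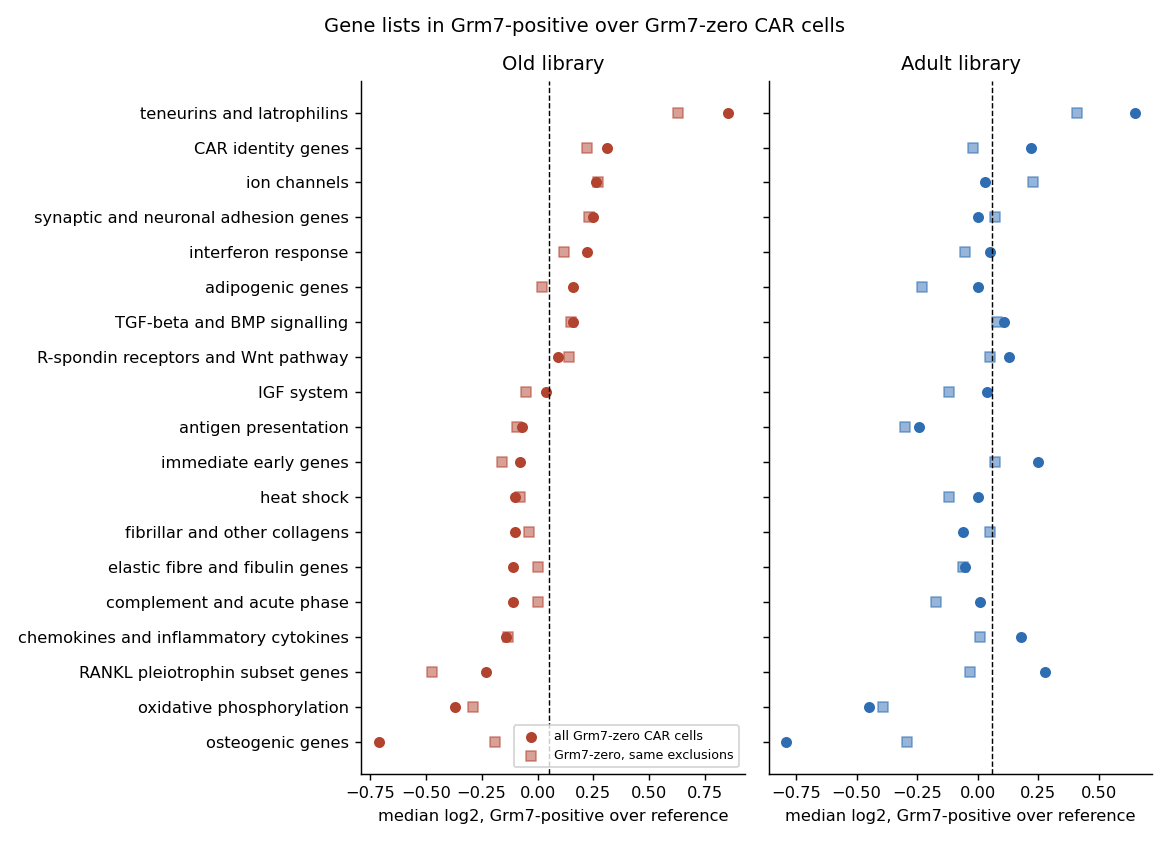
Median log2 ratio of Grm7-positive over Grm7-zero CAR cells (x axis) for pathway lists with at least 3 genes counted in each library (y axis), lists of cell type markers not drawn, in the old (left) and adult (right) library. Circles use all Grm7-zero cells, squares those under the same exclusions, and the dashed line is the median of all genes. Teneurins and latrophilins stand highest at 0.85 and 0.65, osteogenic genes lowest at -0.71 and -0.79.

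Between the ages, the markers behaved in 2 ways. Lgr5 and Efemp1 were higher in the old library in Grm7-positive and Grm7-zero cells alike. Lgr5 was at 79.6 CPM in old and 4.41 CPM in adult Grm7-positive cells, a log2 ratio of 4.17 (3.13 to 5.49), beside 3.32 in Grm7-zero cells. Efemp1 was at 347 and 32.7 CPM, a ratio of 3.41 beside 2.86. Tenm2, at 457 and 177 CPM, had a ratio of 1.37 beside 1.73. Nrg3 was at 796 CPM in old and 523 CPM in adult Grm7-positive cells (0.61), while Grm7-zero cells stood at 233 and 287 CPM (-0.30).

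Slco1a4, Unc5c, Ldb2, Igfbp3 and Adarb2 shared the pattern of Nrg3, in that their levels in Grm7-zero cells were lower in the old library. Slco1a4 was at 113 CPM in old and 50.4 CPM in adult Grm7-positive cells, and at 27.7 and 36.3 CPM in Grm7-zero cells. Igfbp3 was at 213 and 186 CPM in Grm7-positive, and at 73.4 and 125 CPM in Grm7-zero cells. For Unc5c (-0.14 beside -1.03), Ldb2 (-0.47 beside -1.54) and Adarb2 (-0.04 beside -1.41), the old over adult ratio was near or below 0 in Grm7-positive cells and further below in Grm7-zero cells. Rspo2 was at 936 CPM in old and 1135 CPM in adult Grm7-positive cells, and Kitl at 4801 and 4473 CPM. The counts compare 2 libraries, and the difference between Grm7-positive and Grm7-zero cells has no replicate behind it. Grm7-zero cells leave out 39.97% of the old but 6.19% of the adult CAR cells. Excluded kinds make up 36.8% of the old and 25.2% of the adult ones. Under the exclusions, old and adult Grm7-zero cells held 279 and 385 CPM of Nrg3, 41.6 and 50.5 of Slco1a4, 106 and 170 of Unc5c and 105 and 165 of Igfbp3. The part of the unlike references in these ratios was not tested.

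Of 4135 genes, 107 were 2-fold higher (2.59%) and 135 lower (3.26%) in old than in adult Grm7-positive cells. In Grm7-zero cells the same comparison gave 112 (2.68%) and 123 (2.95%) of 4176. Both cell classes thus had similar shares of genes past 2-fold between the libraries. Without cells that carry UMIs of another cell type, 104 genes were higher and 106 lower of 4102 in Grm7-positive cells. With each cell weighted alike, 97 were higher and 96 lower of 4136. These settings were not applied to Grm7-zero cells. The 8 highest in Grm7-positive cells were Cd52, Cd74, Snhg11, Ly6c2, Ly6k, Ly6d, Ly6a and Slpi. Slpi, a protease inhibitor, was at 1233 CPM in old and 47.9 CPM in adult Grm7-positive cells, and at 2375 and 20.9 CPM in Grm7-zero cells. It was at 33638 CPM in old plasma cell barcodes, where Cd52 was at 2065 and Cd74, the invariant chain of MHC class II, at 3567 CPM. Ly6c2, Ly6k and Ly6d were not counted in the adult cells. Taking 3 counts over the group as the floor, they were 67.6-, 50.1- and 43.3-fold higher in the old ones. The lower limits of their log2 ratios were 5.78, 5.35 and 5.14. Snhg11, a non-coding host gene of small nucleolar RNAs, was at 109 CPM in old Grm7-positive cells, 66.2 in old Grm7-zero cells and 0.560 CPM in plasma cell barcodes. The part of free RNA was not tested for any of the 8 genes.

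The 8 lowest, Col9a1, Acan, Snorc, Hapln1, Col9a2, Col2a1, Fn1 and Pcolce2, are mostly cartilage genes, and a single adult cell each held 88.4% (Fn1) to 98.5% (Acan) of their adult UMIs. Without cells that carry UMIs of another cell type their ratios were -5.40 to -0.96, but no chondrocyte marker then reached the minimum. Acan had 0 UMIs in the old cells, so its ratio rests on the floor of 3 counts. The removal also reads Col2a1 and Acan themselves. Whether the cartilage genes differ between the libraries apart from such cells can therefore not be read from these values. Some genes past the minimum were lower in old Grm7-positive cells without those cells, among them Bglap (-4.48), Col1a1 (-3.56) and Tnfsf11 (-2.92). All Grm7-zero cells had ratios of -5.53, -4.77 and -1.84 for these genes, so that Bglap and Col1a1 were further apart there. Tnfsf11, which encodes the osteoclast factor RANKL, was at 127 CPM in old and 929 CPM in adult Grm7-positive cells, and at 196 and 704 CPM in Grm7-zero cells. Ptn (pleiotrophin) was at 58.8 and 338 CPM in Grm7-positive cells, and at 58.2 and 301 CPM in Grm7-zero cells. Fgf13 was at 44.9 and 283 CPM in Grm7-positive cells, and at 44.3 and 156.5 CPM in Grm7-zero cells. Of 22 immediate early genes, 11 were 2-fold lower in old Grm7-positive cells, with a median of -1.02, beside 6 of 21 and -0.71 in Grm7-zero cells. Without cells that carry UMIs of another cell type, 9 of the 22 were 2-fold lower in Grm7-positive cells, with a median of -0.96. Over all genes, 3.26% were called lower in Grm7-positive and 2.95% in Grm7-zero cells. Fosb, a subunit of the transcription factor AP-1, was at 857 and 1711 CPM in Grm7-positive cells, and at 777 and 1136 CPM in Grm7-zero cells. Of 15 interferon response genes, 3 were 2-fold higher and none lower, with a median of 0.66 beside 1 of 14 and 0.57 in Grm7-zero cells. The median of all genes in Grm7-positive cells was -0.02, and 2.59% of them were called higher, beside 2.68% in Grm7-zero cells.

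**Figure D5:**
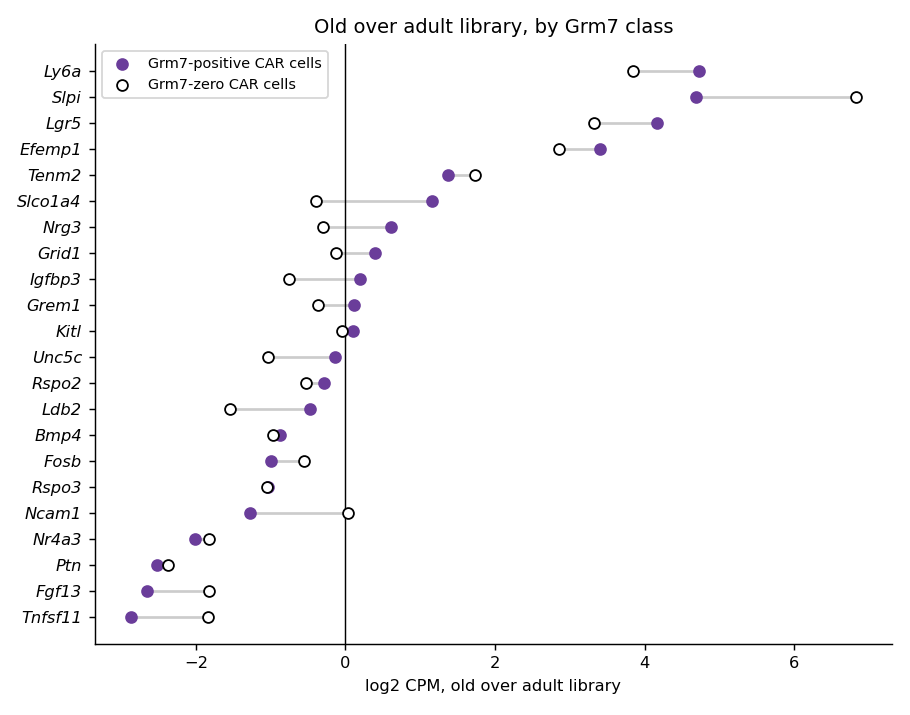
Log2 ratio of CPM in the old over the adult library (x axis) for markers and other named genes (y axis), in Grm7-positive (filled) and Grm7-zero (open) CAR cells. Nrg3 and Slco1a4 lie right of 0 in Grm7-positive and left of 0 in Grm7-zero cells, while Lgr5, Efemp1 and Tenm2 lie right of 0 in both.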

How the data were processed

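The authors deposited raw UMI counts per gene and barcode for each library, made with Cell Ranger 7.0.1 on GRCm39 per the file headers and the submitters' processing notes. Barcodes with under 500 genes or over 10% mitochondrial UMIs were left out, and 41378 remained. No doublet caller was run and no doublets were removed. UMIs were summed per gene over the cells of a group and divided by the group total (CPM); a count of 0 was set to 3 for a ratio. Ratio and share intervals are exact (binomial, Poisson). The named genes are the 15 highest and 12 lowest ratios of the old library, the 8 highest and 8 lowest of the adult library and of old over adult, each with 100 UMIs, up to 3 per gene list, and the markers; predicted, ribosomal, mitochondrial, immunoglobulin, haemoglobin and sex-linked genes were left out. Values of other genes were chosen after they were seen, and 1 gene the rule names is not reported here. Members and lists were chosen with earlier results of these data known. Gene lengths are GENCODE M21 spans (GRCm38), matched by Ensembl identifier. The comparison was tested on simulated data. The deposited counts total 20389137 UMIs in old and 1588123 in adult Grm7-positive cells, and 76027304 and 135218354 in Grm7-zero cells.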

Additional observations from a re-analysis of the deposited data

Results flagged for a closer look

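Barcodes that the filters on genes and mitochondrial UMIs removed were looked at once for the rest of the rule. In the old library 13 of 3323 removed barcodes met it, which is 0.391% (exact binomial interval 0.209% to 0.668%), and in the adult library 1 of 3232 did, 0.0309%. They stand out because the comparisons do not use them and the old share is above the limit that a count of 0 allows.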

How the results depend on the processing

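No paired analysis was possible because each age group has 1 library, and for the same reason no library could be left out. Under 19 alternatives, 85 of 118 main shares, counts and band ratios stayed near the reported value, 33 moved and none reversed. Genes called at 2-fold kept their direction in 869 of 876 such values and 2-fold in 811.
The share of Grm7-positive cells (15% of old CAR cells) was 20.1% with Grm7 at 3 or more UMIs, 8.06% at 10 or more, 16.6% at 5 or more per 10000 UMIs, 19.9% with no exclusions and 6.34% after thinning to 3000 UMIs. The adult share (0.82%) was 1.61% at 3 or more, 0.261% at 10 or more and 0.153% after thinning.
Of the old counts, 27 higher genes became 15 under the exclusions, 12 with depth weighting as well and 67 with a minimum of 10 CPM. The 44 lower ones became 25 under the exclusions, 79 with Grm7 per 10000 UMIs, 23 with a minimum of 100 CPM and 201 with 10 CPM. The 28 adult higher genes became 13 with exclusions and depth weighting, 9 at 3 or more Grm7 UMIs, 61 at 10 or more, 17 with cells weighted alike, 9 with a minimum of 100 CPM and 13 without cells with UMIs of another type. The 51 adult lower ones became 14 under the exclusions, 11 with depth weighting as well, 80 at 10 or more Grm7 UMIs, 78 per 10000 UMIs, 26 with a minimum of 100 CPM and 234 with 10 CPM. Between ages, 107 higher genes became 61 with a minimum of 100 CPM and 412 with 10 CPM, and 135 lower ones 73 with 100 CPM.
In bands per 10000 UMIs, the log2 ratio of cells with 10 or more over 0 Grm7 was 0.50 for old Efemp1 (0.41 by UMIs), 0.82 for adult Tenm2 (1.15) and 0.70 for adult Nrg3 (0.49). The ratios that reversed were adult ones: Pcolce2 at -2.44 with Grm7 per 10000 UMIs, -1.76 without cells over 3 times the median depth and -0.55 without cells of another type's UMIs, Cnmd at -2.62, -1.79 and -0.47 under the same settings, and Pde4b at -0.62 with Grm7 per 10000 UMIs. For these 3 genes 1 cell held 71.9% or more of the UMIs. For the other changes the cause was not tested. The reference with exclusions and depth weighting, and the removal of cells with another type's UMIs, were added after the data had been seen.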
